A study of Homo sapiens with 2 samples.

Results

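The genes described here encode the machinery that copies DNA in S phase and the enzymes that supply its deoxynucleotides. They were chosen by name: 47 gene symbols, matched to the gene column of an AmpliSeq count table. Of these, 46 were found among the 20802 amplicons of the table, and PRIM2 was not analysed here. The table compares 2 human prostate cancer cell lines, LNCaP, grown from a lymph node metastasis, and MDA Pca 2b, grown from a bone metastasis. Both carry the labels WT and total RNA, and no treatment, growth condition, passage or harvest density is stated. By its title the series is about oncogenes and tumour suppressor genes in prostate cancer lines, and it does not name replication genes. Each line stands for 1 donor and has 1 library, so there is no replicate spread and no p-value, and every statement compares these 2 libraries.

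DNA replication starts at origins bound by the origin recognition complex (ORC). In G1, CDC6 and CDT1 load the ring-shaped MCM helicase there, and at the start of S phase CDC7 kinase, CDC45 and GINS turn it into an active helicase. Primase and polymerase alpha then start each strand, polymerases epsilon and delta extend it around the sliding clamp PCNA, and FEN1 and LIG1 join the lagging-strand fragments. Many of these genes are transcribed under control of E2F factors when a cell commits to divide, so their messages are known as a mark of cycling cells in prostate cancer as in other tissues.

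The AmpliSeq assay reads 1 short amplicon per gene. Values are read counts divided by a scaled library size and given as CPM (counts per 1000000 scaled counts), where 1 count was worth 0.0923 CPM in LNCaP against 0.117 CPM in MDA Pca 2b. Amplicons amplify with different efficiency, so levels of different genes are not compared with each other. The total was 10778061 counts in LNCaP against 8558660 in MDA Pca 2b. Small nucleolar and Cajal body RNAs took 1.48% of the counts in LNCaP against 6.18% in MDA Pca 2b. The 9 prostate luminal markers analysed were measured in both lines, at 118 to 961 CPM in LNCaP and 79.1 to 1828 CPM in MDA Pca 2b. Of these, TMPRSS2 and EPCAM were higher in LNCaP beyond 2-fold, KLK3 and KLK2 in MDA Pca 2b, and 5 in neither. Among markers of other cell types, COL1A2 (fibroblasts), PTPRC, CD3E and LYZ (leukocytes) and CDH5, KDR and TEK (endothelium) had 0 counts in both. Others were detected and lay beyond 2-fold. COL1A1 (132 and 24 counts in LNCaP and MDA Pca 2b), ACTA2 (128 and 28) and VWF (20 and 1) were higher in LNCaP. CD14 (68 and 149) and CD68 (116 and 251) were higher in MDA Pca 2b. The 7 fibroblast markers summed to 25.9 CPM in LNCaP against 7.05 CPM in MDA Pca 2b, the 6 leukocyte markers to 17.0 and 47.1 CPM, and the 5 endothelial markers to 3.51 and 4.35 CPM.

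Replication genes were mostly higher in LNCaP. Together the 46 amplicons held 29537 counts in LNCaP, 0.274% of the library (exact 95% interval 0.271 to 0.277), and 11010 counts in MDA Pca 2b, 0.129% (0.126 to 0.131). Genes with 10 counts or more in either library were taken as measured, which held for 44 of the 46. Each ratio carries a 95% Clopper-Pearson interval that covers counting error only, and a gene was called apart where the whole interval lay beyond 2-fold. By that rule 24 of the 44 measured genes were higher in LNCaP, against a background of 13.2% of all 14418 measured genes. In MDA Pca 2b 1 gene, LIG1, was higher, against a background of 10.9%, and 19 were not beyond 2-fold. The ratio lay above 1 in 39 of the 44, where 50.1% of all measured genes did.

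The median gene of the list was 2.62-fold higher in LNCaP, with quartiles of 1.36 and 4.10, and the median over all measured genes was 1.002. On the log2 scale of MDA Pca 2b over LNCaP, the medians were −1.39 and −0.0034. Of the 44 genes, 29 lay above the upper quartile of all measured genes, a ratio of 1.77, and 1 lay below the lower quartile of 0.577. The genes MCM2, POLE2 and RFC5 passed the count minimum through LNCaP only. Without them, 23 of 41 were higher in LNCaP, and the median was 2.54-fold. The background of 13.2% still includes genes that passed the minimum in 1 library only, so its filter is wider than that of the 41. In bulk RNA a smaller share of cells in S phase and less message per cell cannot be told apart. All 10 cycling cell markers looked up beside these genes were also higher in LNCaP beyond 2-fold, beside 13.2% of all measured genes. MKI67 was 4.20-fold higher (3.22 to 5.57), TOP2A 5.48-fold (4.62 to 6.52) and CDK1 38.7-fold (29.2 to 52.5). AURKA, with 30 and 1 counts, passed the count minimum through LNCaP only, so it adds no support. The summed level of the 10 markers was 721.5 CPM in LNCaP against 98.8 CPM in MDA Pca 2b. Their part in the difference of the replication genes was not tested.

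**Figure D1:**
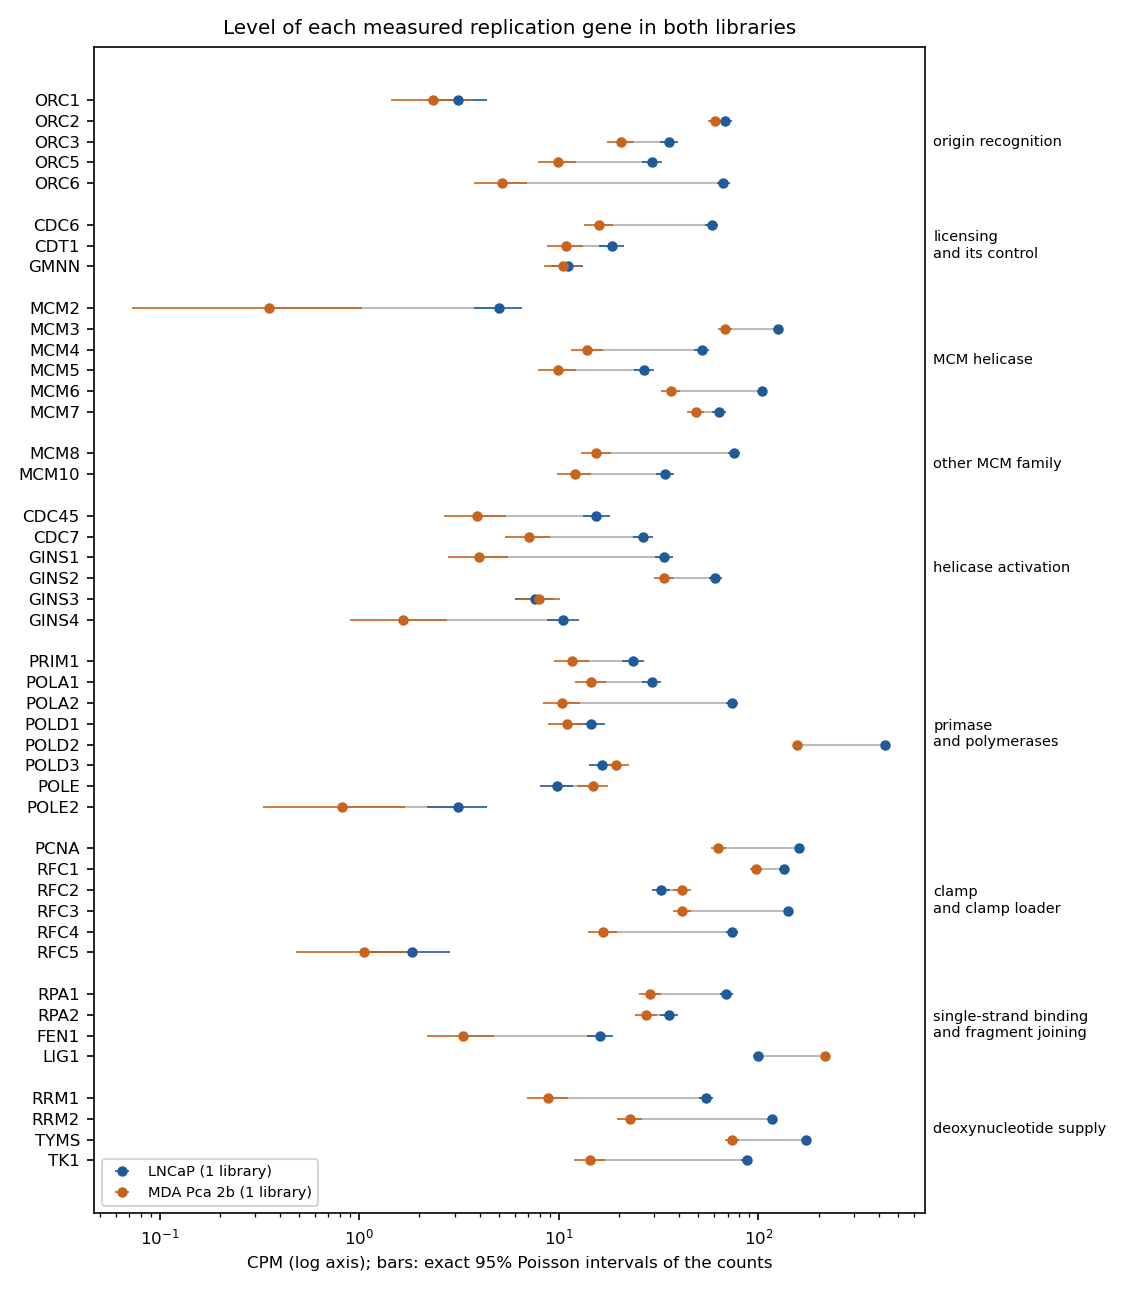
Level of each of the 44 measured replication genes in the LNCaP library (blue) and the MDA Pca 2b library (orange), in CPM on a log axis, grouped by role. Bars are exact 95% Poisson intervals of the counts. LNCaP lies to the right for 39 genes, and the orange point lies to the right for LIG1, POLE, RFC2, POLD3 and GINS3.

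**Figure D2:**
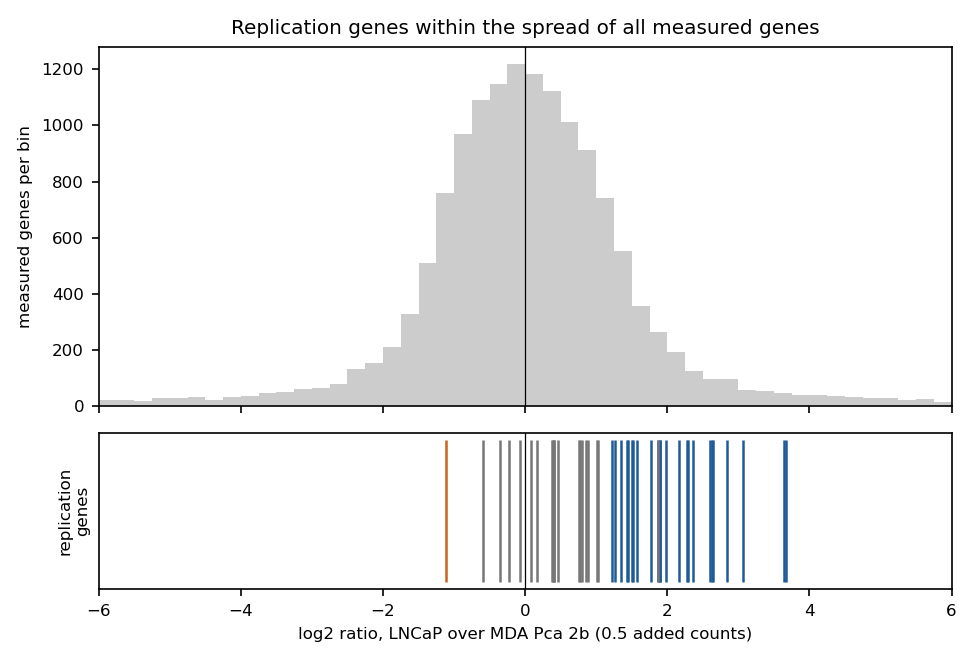
Histogram of the log2 ratio of LNCaP over MDA Pca 2b for 14418 measured genes (top, 258 genes lie beyond the axis) and the same ratio for each of the 44 replication genes (bottom, blue and orange beyond 2-fold, grey not). The replication genes lie mostly right of 0, while all measured genes centre on it.

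The origin recognition complex differed subunit by subunit. ORC6, the smallest subunit, had 723 counts in LNCaP against 44 in MDA Pca 2b, or 66.7 and 5.17 CPM, which is 12.9-fold more in LNCaP (9.51 to 17.9). ORC5 had 318 and 84 counts and was 2.97-fold higher (2.33 to 3.83). ORC2, a core subunit, was nearly level, with 740 and 517 counts, or 68.3 and 60.7 CPM, a ratio of 1.12 (1.003 to 1.26). ORC3 had 386 and 174 counts and a ratio of 1.74 (1.45 to 2.10), short of the 2-fold call. ORC1, the ATPase subunit that itself rises in G1, had only 34 and 20 counts, a ratio of 1.33 (0.747 to 2.45) that this depth cannot place on either side of 1. ORC4 was listed at 0 in both libraries, which allows up to 0.277 CPM in LNCaP against 0.352 CPM in MDA Pca 2b. A ratio of 2 such ratios needs no scaling of the libraries: that of ORC6 exceeded that of ORC2 11.5-fold (exact conditional interval 8.26 to 16.3), so the difference between subunits is beyond counting error. Such pairs, 28 in all, were picked with the values known and set with the larger ratio first. That 26 of their intervals lay above 1 therefore adds no support.

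The loading factors differed from each other. CDC6, the ATPase that recruits the helicase to ORC, had 632 counts in LNCaP against 135 in MDA Pca 2b, so it was 3.68-fold more in LNCaP (3.05 to 4.46). CDT1, its partner in loading, had 199 and 92 counts, a ratio of 1.70 (1.32 to 2.20). GMNN encodes geminin, which binds CDT1 and blocks reloading, and its 120 and 89 counts gave a ratio of 1.06 (0.798 to 1.41). The ratio of CDC6 exceeded that of CDT1 2.16-fold (1.57 to 2.98), and that of CDT1 exceeded that of GMNN 1.60-fold (1.09 to 2.36).

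The MCM2 to MCM7 proteins form the hexameric core of the replicative helicase, with 1 copy of each. Leaving out MCM2, which passed the count minimum through LNCaP only, all 5 messages had intervals above 1. Of these, 3 were higher in LNCaP beyond 2-fold, beside 13.2% of all genes that passed the minimum in either library. MCM4 had 562 and 118 counts, or 51.9 and 13.9 CPM, 3.74-fold higher in LNCaP (3.06 to 4.601). MCM6 had 1129 and 309 counts, 2.87-fold higher (2.53 to 3.26), and MCM5 289 and 84, 2.70-fold (2.11 to 3.49). The intervals of these 3 overlap. MCM2 had 54 counts in LNCaP against 3 in MDA Pca 2b, a ratio of 14.1 whose interval of 4.59 to 70.7 shows how little 3 counts fix it. MCM3, at 124.8 and 67.9 CPM, had a ratio of 1.84 (1.67 to 2.03), and MCM7, at 63.5 and 48.5 CPM, the lowest of the 6, 1.31 (1.16 to 1.48). The ratio of MCM4 exceeded that of MCM7 2.86-fold (2.25 to 3.64), a gap between subunits of 1 hexamer that is beyond counting error. MCM7 exons overlap those of AP4M1 on the other strand and MCM2 exons those of TPRA1, and the counting is not stated to use strand.

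MCM8 and MCM10, the other genes of the list with MCM names, were also higher in LNCaP. MCM8, which works with MCM9 in recombination repair at forks, had 821 and 131 counts, 4.92-fold higher (4.09 to 5.96). MCM10, a scaffold for firing of the assembled helicase, had 368 and 102 counts, 2.83-fold higher (2.27 to 3.56). MCM9 is not on the list and was singled out after its values were seen: its 65 and 58 counts gave a ratio of 0.880 (0.608 to 1.28), and the ratio of MCM8 exceeded it 5.58-fold (3.67 to 8.49).

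Of the 6 genes that activate the helicase, 4 were higher in LNCaP beyond 2-fold, beside 13.2% of all measured genes. The GINS subunits were far apart. GINS1 and GINS4, a pair of GINS subunits, were both far higher in LNCaP. GINS1 had 366 and 34 counts, a ratio of 8.45 (5.94 to 12.4), and GINS4 had 114 and 14, a ratio of 6.39 (3.66 to 12.1). GINS2 had 659 and 286 counts, a ratio of 1.81 (1.57 to 2.09). GINS3 had 82 and 68 counts, or 7.57 and 7.99 CPM, a ratio of 0.947 (0.678 to 1.33). The 4 subunits form 1 tetramer, yet the ratio of GINS1 exceeded that of GINS3 8.88-fold (5.40 to 14.8). GINS1 and GINS4 did not differ beyond their counting error, with a ratio of ratios of 1.32 (0.632 to 2.63). CDC45, the third part of the active helicase, had 167 and 33 counts, 3.97-fold higher in LNCaP (2.72 to 5.96). CDC7, the kinase that fires origins, had 286 and 60 counts, 3.74-fold higher (2.83 to 5.03).

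**Figure D3:**
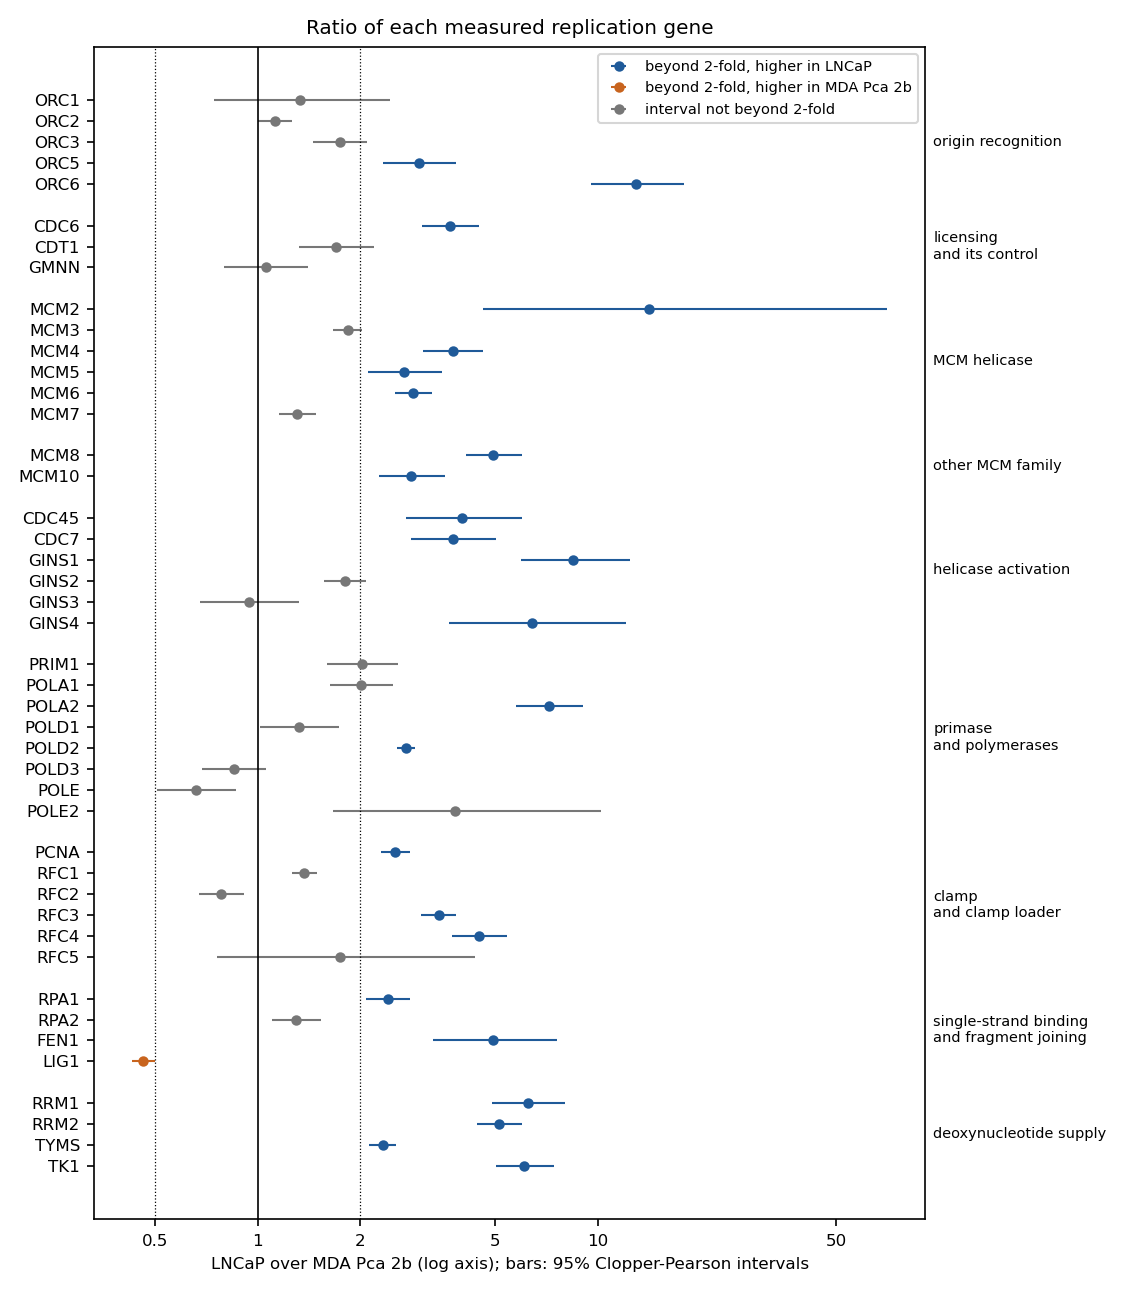
Ratio of LNCaP over MDA Pca 2b for each of the 44 measured replication genes on a log axis, grouped by role, with 95% Clopper-Pearson intervals. Blue genes (24) lie wholly above 2, LIG1 (orange) wholly below 0.5, and 19 grey genes do neither. Subunits of ORC, GINS and the clamp loader spread from near 1 to several-fold.

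Among primase and the polymerases, 2 of 8 measured genes were higher in LNCaP beyond 2-fold, beside 13.2% of all measured genes. Both are accessory subunits. POLA2, the B subunit of polymerase alpha, had 802 and 88 counts, or 74.0 and 10.3 CPM, 7.16-fold higher in LNCaP (5.74 to 9.02). The catalytic POLA1, with 316 and 123 counts, and the primase PRIM1, with 256 and 99, had ratios of 2.02 (1.63 to 2.51) and 2.03 (1.60 to 2.59). POLA2 exceeded POLA1 3.54-fold (2.59 to 4.86) in this ratio. POLD2, the B subunit of polymerase delta, had 4648 and 1334 counts, 2.74-fold higher in LNCaP (2.57 to 2.91). The catalytic POLD1 had 157 and 93 counts, a ratio of 1.33 (1.02 to 1.73), and the PCNA-binding POLD3 179 and 165, a ratio of 0.852 (0.686 to 1.06). POLE2, the B subunit of polymerase epsilon, was read at low depth, with 34 and 7 counts and a ratio of 3.81 (1.66 to 10.2). Its catalytic partner POLE lay on the other side of 1, with 106 and 126 counts, 1.51-fold above LNCaP in MDA Pca 2b (1.16 to 1.98). The ratio of POLD2 exceeded that of POLD1 2.06-fold (1.57 to 2.70). That of POLE2 exceeded that of POLE 5.74-fold (2.38 to 16.0), but POLE2 passed the count minimum through LNCaP only, so this pair adds no support.

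PCNA, the sliding clamp, had 1732 and 536 counts, or 159.8 and 63.0 CPM, 2.54-fold higher in LNCaP (2.30 to 2.80). Its loader, replication factor C, was split. RFC4 had 803 and 141 counts, 4.47-fold higher in LNCaP (3.73 to 5.39). RFC3 had 1525 and 352 counts, 3.40-fold higher (3.03 to 3.83). RFC1, the large subunit, had 1453 and 831 counts, a ratio of 1.37 (1.26 to 1.497). RFC2 had 353 and 354 counts, which after scaling is 1.28-fold above LNCaP in MDA Pca 2b (1.10 to 1.48). RFC5 had 20 and 9 counts, too few to place (1.74, 0.760 to 4.35). The ratio of RFC4 exceeded that of RFC2 5.70-fold (4.50 to 7.26).

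Replication protein A coats the unwound strands. RPA1, its large subunit, had 749 and 244 counts, 2.41-fold higher in LNCaP (2.08 to 2.80), and RPA2 386 and 233, a ratio of 1.301 (1.10 to 1.54). RPA3 had 0 and 1 counts and no fold is given. FEN1, the flap nuclease of fragment joining, had 175 and 28 counts, 4.91-fold higher in LNCaP (3.28 to 7.60). LIG1, the ligase that seals the same fragments, went the other way with 1082 counts in LNCaP against 1838 in MDA Pca 2b, or 99.8 and 216 CPM. It was 2.16-fold above LNCaP in MDA Pca 2b (2.01 to 2.33), and the ratio of FEN1 exceeded that of LIG1 10.6-fold (7.03 to 16.5). The call of LIG1 sits at the threshold and was lost with total-count scaling, DESeq2 size factors, thinning and GC correction, where it stayed below 1 at 0.467, 0.476, 0.471 and 0.494 in LNCaP over MDA Pca 2b.

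All 4 genes of deoxynucleotide supply were higher in LNCaP beyond 2-fold, beside 13.2% of all measured genes, with a median of 5.61-fold. RRM1 and RRM2 encode the large and small subunits of ribonucleotide reductase, which makes deoxynucleotides from ribonucleotides. RRM1 had 594 and 75 counts, or 54.8 and 8.81 CPM, 6.22-fold higher in LNCaP (4.88 to 8.02). RRM2 had 1261 and 193 counts, or 116 and 22.7 CPM, 5.13-fold higher (4.41 to 6.001). The pair did not differ from each other beyond counting error, with a ratio of ratios of 1.21 (0.906 to 1.63). TK1, the cytosolic thymidine kinase of S phase, had 945 and 122 counts, 6.08-fold higher in LNCaP (5.03 to 7.41). TYMS, which makes thymidylate and is the target of fluorouracil, had 1871 and 630 counts, 2.33-fold higher (2.13 to 2.56). Its exons overlap ENOSF1 and TYMSOS on the other strand.

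Counterparts of RRM2 and TK1 that serve cells outside S phase lay nearer to 1. RRM2B, the p53-inducible small subunit used in resting cells, was singled out after its values were seen. It had 69 and 42 counts, a ratio of 1.29 (0.867 to 1.94), and RRM2 exceeded it 3.97-fold (2.56 to 6.11). TK2, the mitochondrial thymidine kinase, had 310 counts in both libraries, 1.27-fold higher in MDA Pca 2b after scaling (1.08 to 1.49), and TK1 exceeded it 7.73-fold (6.02 to 9.99).

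Promoter letters did not enter the choice of genes, though many of these genes are known to be under E2F control. RefSeq promoters (GRCh38.p14, 250 bases before and 50 after the start) were at hand for 41 of the 47 genes, and E2F-type sites were searched as TTTCCCGC, TTTCGCGC, TTTGCCGC or TTTGGCGC on both strands, overlaps allowed. At least 1 match lay in 21 of the 41 (51.2%), against 3.99% of 27305 genes with a promoter and 6.12% of the 10258 of them measured here. The CCAAT box (letters CCAAT) lay in 61.0% of the list, 39.7% of all genes and 43.4% of the measured ones. The GC box GGGCGG lay in 75.6%, 48.3% and 72.6%, so its share in the list was close to that of measured genes. TTTGAA or TTCGAA lay in 4.88%, 19.5% and 16.2%. Median promoter GC was 65% in the list, 58.3% in all and 64% in the measured genes. A match describes letters in a window, not binding. Other spellings of the E2F site were not searched, so a gene without a match is not shown to lack such a site. The windows below run from 120 bases before the start to 20 after, 5′ to 3′ along the gene, with E2F-type matches in capitals. MCM2, CDC6, GINS1, POLA2 and PCNA are shown as genes higher in LNCaP with a match, GINS3 and LIG1 as genes with a match that were not, and ORC6 and TK1 as genes far higher in LNCaP with none in the whole promoter. PCNA and TK1 have several listed starts, and the first is shown.
MCM2 (chr3:127598291-127598430, plus strand): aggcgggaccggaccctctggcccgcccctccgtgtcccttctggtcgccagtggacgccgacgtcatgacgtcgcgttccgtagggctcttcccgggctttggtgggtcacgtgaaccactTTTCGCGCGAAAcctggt
CDC6 (chr17:40287759-40287898, plus strand): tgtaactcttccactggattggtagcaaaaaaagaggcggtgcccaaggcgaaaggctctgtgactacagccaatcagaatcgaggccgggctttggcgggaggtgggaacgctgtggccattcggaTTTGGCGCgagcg
GINS1 (chr20:25407553-25407692, plus strand): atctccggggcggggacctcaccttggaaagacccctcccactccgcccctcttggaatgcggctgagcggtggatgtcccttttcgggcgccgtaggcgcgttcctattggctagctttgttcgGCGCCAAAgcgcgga
POLA2 (chr11:65261842-65261981, plus strand): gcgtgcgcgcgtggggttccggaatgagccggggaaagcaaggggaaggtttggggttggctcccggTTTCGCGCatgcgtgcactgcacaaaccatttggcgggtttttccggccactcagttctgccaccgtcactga
PCNA (chr20:5126603-5126742, minus strand): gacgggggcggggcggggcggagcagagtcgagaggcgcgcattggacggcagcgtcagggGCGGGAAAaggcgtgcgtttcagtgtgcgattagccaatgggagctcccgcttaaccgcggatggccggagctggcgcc
GINS3 (chr16:58392351-58392490, plus strand): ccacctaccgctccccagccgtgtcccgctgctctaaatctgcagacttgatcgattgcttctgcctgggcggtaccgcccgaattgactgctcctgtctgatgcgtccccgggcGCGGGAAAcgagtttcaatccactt
LIG1 (chr19:48170325-48170464, minus strand): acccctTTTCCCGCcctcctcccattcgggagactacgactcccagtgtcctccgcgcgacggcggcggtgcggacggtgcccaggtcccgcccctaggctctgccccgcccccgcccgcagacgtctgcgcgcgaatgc
ORC6 (chr16:46689539-46689678, plus strand): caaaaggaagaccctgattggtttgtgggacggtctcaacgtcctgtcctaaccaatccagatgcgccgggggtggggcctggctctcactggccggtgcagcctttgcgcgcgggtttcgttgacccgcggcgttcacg
TK1 (chr17:78187185-78187324, minus strand): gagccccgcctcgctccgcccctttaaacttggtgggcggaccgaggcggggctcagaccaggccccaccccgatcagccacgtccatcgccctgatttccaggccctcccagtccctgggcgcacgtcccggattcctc

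Genes with and without a match covered much the same range of ratios. Of the 21 measured genes with an E2F-type match, 10 were higher in LNCaP against 1 in MDA Pca 2b. Their median ratio was 2.33, with a range of 0.462 to 14.1. Of the 18 without one, 11 were higher in LNCaP against 0 in MDA Pca 2b. Their median ratio was 2.78, with a range of 0.783 to 12.9. The background was 13.2% and 10.9% of all measured genes. MCM2 (the ratio of 14.1) and POLE2, with a match, and RFC5, without one, passed the count minimum through LNCaP only. In MCM2 the windows show 2 overlapping matches that form a palindrome just past the start, while ORC6, with a nearly as large ratio, has none. GINS1 and GINS3 both carry 1 match near the start and lie at 8.45 and 0.947.

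**Figure D4:**
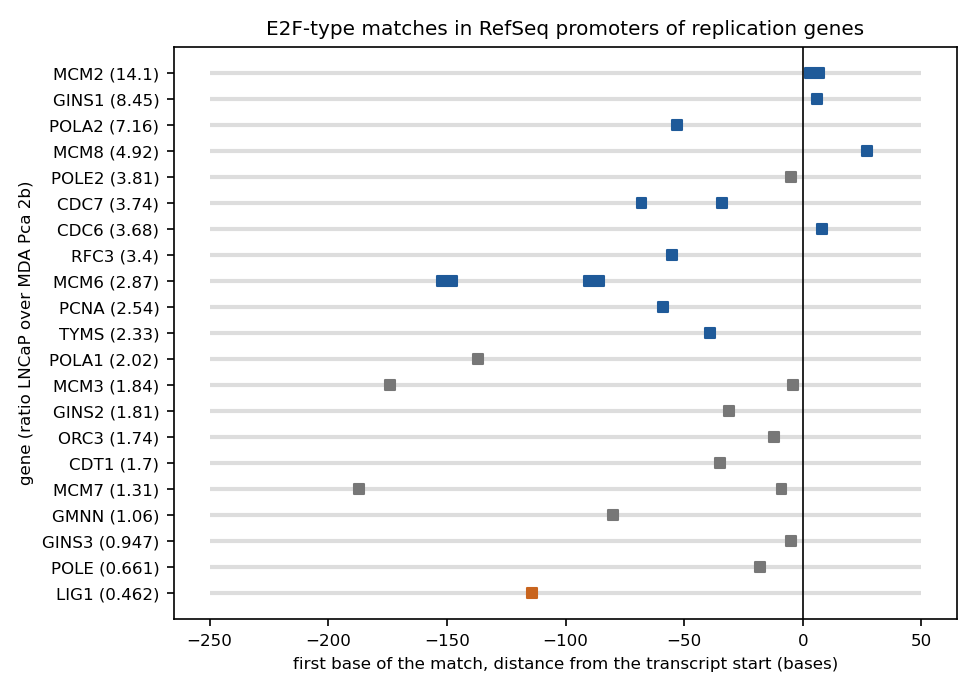
Position of each E2F-type match from the transcript start, in bases, in the RefSeq promoters of 21 replication genes, ordered by the ratio of LNCaP over MDA Pca 2b given beside each name. Grey lines span the searched 300 bases, blue and orange mark genes beyond 2-fold and grey squares genes that are not. Matches occur from the top of the order (MCM2, 14.1) to the bottom (LIG1, 0.462).

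Pathway genes outside the list were looked up in the same way. Of 39 other replication fork and origin genes, all measured, 10 (25.6%) were higher in LNCaP against 0 in MDA Pca 2b beyond 2-fold, and the list had a median of 1.75-fold. The background was 13.2% and 10.9% of all measured genes, and 1 of the 10, TOP2A, is also among the cycling cell markers. DTL, which targets CDT1 for destruction, had 397 and 35 counts, 8.91-fold higher (6.30 to 13.0). PCLAF, a PCNA-associated factor, had 813 and 78 counts, 8.18-fold higher (6.48 to 10.5), and exceeded PCNA itself 3.22-fold (2.50 to 4.20). The histone chaperones ASF1B and ASF1A were 6.502-fold (4.28 to 10.3) and 3.94-fold (3.43 to 4.55) higher. On the other side of 1 lay DBF4, the activating partner of CDC7, with 115 and 187 counts, 2.07-fold above LNCaP in MDA Pca 2b (1.63 to 2.64), and CHAF1A, 1.28-fold (1.13 to 1.45). The kinase subunit CDC7 exceeded DBF4 7.72-fold (5.31 to 11.3) in the ratio, and the alternative partner DBF4B, chosen after its values were seen, exceeded DBF4 5.64-fold (3.82 to 8.42).

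Of 35 other nucleotide synthesis genes, all measured, 8 (22.9%) were higher in LNCaP against 2 in MDA Pca 2b, beside the background of 13.2% and 10.9% of all measured genes. The median was 1.53-fold over the 34 with counts in both libraries, and 1.67-fold with the remaining gene, NME2, at its bound. UMPS, the last step to UMP, had 1136 and 160 counts and was 5.58-fold higher in LNCaP (4.72 to 6.62), DCK, which salvages deoxycytidine, 3.95-fold (3.23 to 4.86), and PPAT, the first committed step of purine synthesis, 3.09-fold (2.77 to 3.44). ATIC, which completes purine synthesis, had 15617 and 4551 counts, 2.69-fold higher (2.61 to 2.79). NME2 had 17 counts in LNCaP against 0 in MDA Pca 2b, which against a floor of 3 counts is at least 4.45-fold higher in LNCaP. The lower end of its interval, which also carries the counting error of the 17, was 3.24. Its near-identical neighbour NME1 makes the split of reads uncertain. NME2 is counted among the 8 but passed the count minimum through LNCaP only, so it adds no support. Higher in MDA Pca 2b were CTPS1, a CTP synthase, with 325 and 815 counts (3.19-fold, 2.80 to 3.64), and IMPDH1, a guanine nucleotide enzyme, with 463 and 822 (2.26-fold, 2.02 to 2.54). DCTD (1.93-fold, 1.82 to 2.06) and ADSL (1.35-fold, 1.28 to 1.44) lay on the same side without passing 2-fold. The call of IMPDH1 was lost with total-count scaling, DESeq2 size factors and GC correction.

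**Figure D5:**
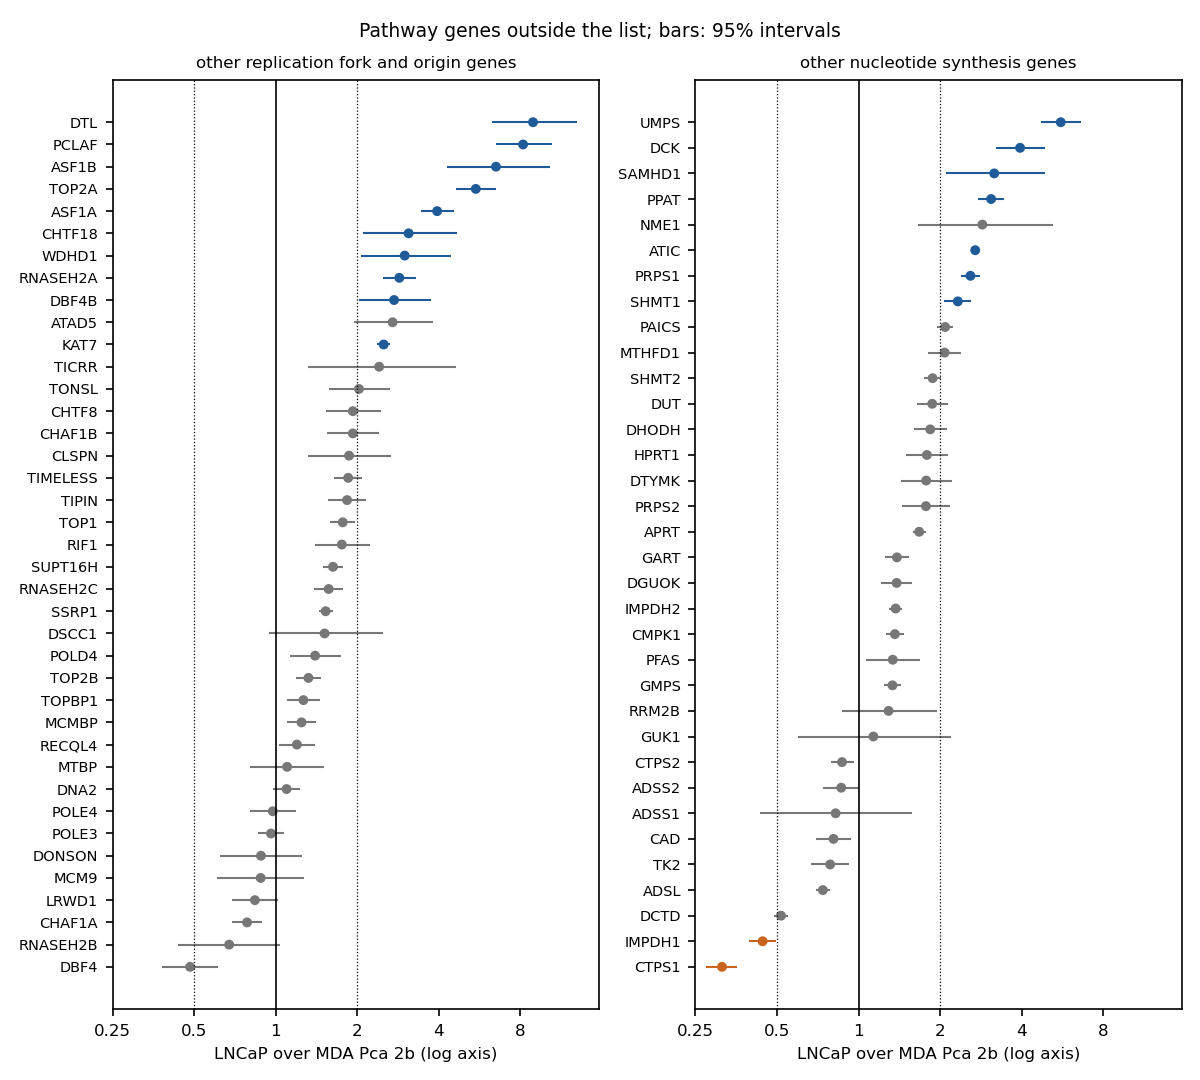
Ratio of LNCaP over MDA Pca 2b on a log axis with 95% Clopper-Pearson intervals for 39 other replication genes (left) and 34 of 35 other nucleotide synthesis genes (right). NME2, at 0 in MDA Pca 2b, is not drawn. Blue genes lie wholly above 2, orange genes (CTPS1 and IMPDH1) wholly below 0.5, and the order shows DTL and PCLAF at the top on the left and UMPS on the right.

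Reads of near-identical copies are a further limit. GENCODE lists 15 pseudogenes named after 8 of the genes (POLD2, PCNA, RFC3, RFC5, RPA2, FEN1, RRM2 and TYMS), and for 16 of the 47 some exon bases overlap a gene on the opposite strand, so these values are uncertain to the extent that the counting split or shared reads.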

How the data were processed

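Total RNA (10 ng per library, per the labels' protocols) was read with the AmpliSeq Transcriptome assay in 1 library of LNCaP and 1 of MDA Pca 2b. The authors deposited whole-number read counts per amplicon with no normalization, per the file headers and the values. The submitters' processing notes name hg19 and DESeq without a role. No source used here gives the aligner, counter, strand or filters. The 10 spike-in rows, at 0, were left out of 20812.

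Counts were scaled by library total times the edgeR 4.0.16 TMM factor (R 4.3.3). Ratios have 95% Clopper-Pearson intervals conditional on the sum of both counts (SciPy 1.17.1). Ratios of ratios are conditional odds ratios. Log2 medians use 0.5 added counts. PCR reads are not independent molecules, so intervals and floors (3 counts) cover counting error only. With 1 library a line no test was made. Scaling (total counts, DESeq2 1.42.0, upper quartile, TMM without snoRNAs), filters, added counts, fold thresholds, thinning, assumed spreads and GC correction were varied. The interval step was tested on simulated Poisson counts, with the changed genes drawn away from low counts. That test does not show how the intervals hold for amplified reads or for changed genes with few counts. An item of the nucleotide list is not reported here and entered none of its counts. Genes and lists were chosen with earlier results of these data known. All members may be named, and of other pathway genes the 5 with the largest interval-bounded ratio per list and direction. Promoters are RefSeq's (GRCh38.p14), and copies and overlaps come from GENCODE 29.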

Additional observations from a re-analysis of the deposited data

How the results depend on the processing

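The count of 24 replication genes higher in LNCaP kept within 1.5 times (22 to 29) under the other scalings, filters, added counts, thinning, GC correction and the 1.5-fold threshold. It was 14 at a 3-fold threshold, and 15 and 4 with a spread between cultures of 20% and 40%, assumed because no replicate measures it. The share of all measured genes higher in LNCaP was 13.2% and became 22.5% at 1.5-fold, 6.21% at 3-fold, and 6.53% and 3.38% with the spreads. With 40% the 4 genes were ORC6, MCM2, GINS1 and POLA2. MCM2 passed the count minimum through LNCaP only, so it adds no support. The 1 gene higher in MDA Pca 2b became 0 with total counts, DESeq2 size factors, thinning, GC correction, the 3-fold threshold and both spreads. Upper quartile scaling ended the calls of MCM5 (2.54) and RPA1 (2.27). The median log2 ratio stayed between −1.43 and −1.30, and no called gene changed direction. Other replication genes higher in LNCaP went from 10 to 17 at 1.5-fold, 5 at 3-fold, and 5 and 2 with the spreads. Their number was 7 with upper quartile scaling, 8 with GC correction and 11 with DESeq2 size factors. The share of all measured genes higher in LNCaP was 11.9%, 12.6% and 14.2% in the same order. Other replication genes higher in MDA Pca 2b went from 0 to 1 at 1.5-fold. Other nucleotide genes higher in LNCaP went from 8 to 15 at 1.5-fold, 3 at 3-fold, and 2 and 0 with the spreads. Their number was 6 with upper quartile scaling, 7 with GC correction and 9 with DESeq2 size factors. Those higher in MDA Pca 2b went from 2 to 1 with total counts, DESeq2 size factors and GC correction and to 0 at 3-fold and with both spreads. No paired analysis was possible because each line has 1 library. Depth limits ORC1, RFC5, POLE2 and MCM2.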
